A study of Mus musculus with 15 samples.

Results

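Sox4, Sox5, Sox6, Sox9, Sox11 and Sox12 are 6 of the 20 Sox family genes with a row in the count tables, which list 46603 Ensembl gene IDs. They were taken by symbol, and all 6 were found. RNA was sequenced from mouse embryonic fibroblasts (MEFs, connective tissue cells grown from embryos) of strain BALB/c, taken from 10.5 day embryos, that carried both copies (WT), 1 copy (HET) or no copy (KO) of Actb, the gene of the cytoskeletal protein beta-actin. All groups were grown to confluence in DMEM on Matrigel and then received the same osteogenic treatment: OsteoMax-XF medium with dexamethasone, a glucocorticoid, and forskolin, which activates adenylyl cyclase and so raises cAMP. The change of medium marks day 0. Of the 15 libraries, 6 are from day 4, with 3 each of WT and KO, and 9 from day 14, with 3 each of WT, HET and KO. Every group received both drugs, so no comparison here tests them. Heterozygous cells at day 4 and untreated fibroblasts were not analysed here. The labels do not say how many embryos or lines stand behind a genotype, so an effect of the Actb genotype and a difference between the cells it was carried in cannot be told apart. They also do not say that replicates were separate cultures, so p-values measure only the spread between these libraries.

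SOX proteins bind DNA through a high mobility group (HMG) box, which fits into the minor groove and bends the helix. SOX9, of the SoxE subgroup, is required to form cartilage from mesenchymal precursors and switches on collagen II and aggrecan. SOX5 and SOX6, of the SoxD subgroup, have no activation domain of their own and work beside SOX9 in chondrocytes. SOX4, SOX11 and SOX12 form the SoxC subgroup, activators found in embryonic mesenchymal and neural progenitors, where they act largely in overlapping ways. In skeletal precursors, SOX9 and the osteoblast factor RUNX2 are made together before cells take the cartilage or the bone fate. Protein kinase A, the enzyme that cAMP activates, can phosphorylate SOX9, and bone morphogenetic proteins (BMPs) are among the signals that raise Sox9.

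The coding stretch that opens the HMG box shows how close the 6 genes are to each other where the others are most like Sox9. Its 120 bases were found by a search for the coding window with the highest summed identity to Sox9. No other window of this length, taken in codon steps without gaps, had a higher summed identity to Sox9. Windows were not ranked by likeness among the other genes. It is given 5′ to 3′ on the coding strand from the GENCODE M21 transcripts (build GRCm38), with the bases that all 6 share in capitals.
Sox9: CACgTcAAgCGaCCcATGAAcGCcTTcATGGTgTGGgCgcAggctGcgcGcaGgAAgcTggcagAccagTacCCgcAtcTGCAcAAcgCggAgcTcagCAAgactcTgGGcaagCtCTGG
Sox5: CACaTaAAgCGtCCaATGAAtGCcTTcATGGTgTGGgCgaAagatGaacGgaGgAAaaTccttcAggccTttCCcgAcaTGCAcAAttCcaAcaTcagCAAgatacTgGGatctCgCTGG
Sox6: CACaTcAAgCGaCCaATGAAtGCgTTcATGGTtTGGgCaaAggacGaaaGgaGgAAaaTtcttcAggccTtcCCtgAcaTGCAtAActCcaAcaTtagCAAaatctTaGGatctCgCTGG
Sox4: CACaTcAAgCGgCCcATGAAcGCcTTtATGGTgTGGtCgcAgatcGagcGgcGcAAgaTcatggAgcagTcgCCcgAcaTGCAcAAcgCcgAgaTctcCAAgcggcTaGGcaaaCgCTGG
Sox11: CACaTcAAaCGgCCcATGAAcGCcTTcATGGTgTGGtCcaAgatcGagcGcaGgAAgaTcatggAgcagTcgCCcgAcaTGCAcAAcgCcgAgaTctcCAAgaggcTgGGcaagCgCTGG
Sox12: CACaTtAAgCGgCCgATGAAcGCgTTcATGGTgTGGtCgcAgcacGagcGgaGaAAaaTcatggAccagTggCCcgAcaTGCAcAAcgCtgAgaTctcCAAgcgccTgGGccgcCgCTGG
Of the 120 bases, 60 were the same in all 6 genes. Pairs within a subgroup were 84.2% to 91.7% identical over this stretch, and pairs of different subgroups 61.7% to 75.8%. Over whole transcripts, the longest run of identical bases between any pair was 48 bases, between Sox4 and Sox11. The stretch lies within 1 coding exon at chr11:112782894-112783013 on the plus strand in Sox9, and on the minus strand at chr13:28952731-28952850 in Sox4, chr12:27342148-27342267 in Sox11 and chr2:152397465-152397584 in Sox12. It is split by an intron at chr6:143835402-143841282 in Sox5 and chr7:115486754-115489771 in Sox6, both on the minus strand. Sox4, Sox11 and Sox12 each have a single exon, and the Sox9 transcript has 3. The exons of Sox4 need a caution: 2616 of their 4795 bases (54.6%) also lie in exons of Gm26735, a noncoding gene on the opposite strand. Because the kit leaves strand unmarked, reads there could be set aside as ambiguous, and Gm26735 had 0 counts in all 15 libraries. Sox5 shares 1330 of 14376 exon bases with the antisense gene Sox5os1, which also had 0 counts throughout.

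Counts per library ran from 19878449 to 47486736, and were lower at day 14 (at most 24822803) than at day 4 (at least 25665666). Actb followed the labels, at 129.9 to 138.6 CPM in KO against 1164 to 1193 in WT at day 4, and at 43 to 46.5 in KO, 1437 to 1642 in HET and 2947 to 3067 in WT at day 14. CPM is the count scaled to the size of its library, so that libraries of unequal depth can be set side by side. HET replicate 2 stood apart from the other HET libraries, with a median absolute log2 difference of 0.26 or more to each over 9611 genes, against 0.058 between those 2 and at most 0.157 within any other group. Leaving it out ended no call of a Sox gene. The label of reprogrammed osteoblasts was only partly met by defining markers. Runx2 and Alpl were present in every group, while group totals never passed 4 counts for Sp7, the osteoblast factor downstream of Runx2, 4 for Dmp1, 3 for Ibsp and 25 for Bglap, the osteocalcin gene. Of the 12 osteoblast genes looked at, 8 passed the filter on low counts: Runx2, Alpl, Spp1, Col1a1, Col1a2, Sparc, Dlx5 and Msx2. The 12 summed to at least 3936 CPM in every library.

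Sox9 was higher in every KO and HET library than in any WT library (ENSMUSG00000000567, chromosome 11, 112782224 to 112787760, plus strand). The share of all tested genes separated in this way is not given here, so the separation is not shown to be unusual. In WT at day 4 it stood at 6.31, 7.35 and 4.85 CPM in replicates 1 to 3, and at day 14 at 1.68, 1.53 and 2.1. In KO it stood at 21.1, 21.2 and 22.4 CPM at day 4 and at 31.5, 32.1 and 27.9 at day 14. The HET libraries of day 14 held 20.2, 20.1 and 20 CPM. No groups overlapped, though KO at day 4 and HET at day 14 came near each other, and the means ran from KO at day 14 (30.5 ± 2.22, SD, n = 3) over KO at day 4 (21.5 ± 0.71), HET (20.1 ± 0.123) and WT at day 4 (6.17 ± 1.26) to WT at day 14 (1.77 ± 0.297).

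The Sox9 level moved in opposite directions with time in the 2 genotypes followed over both days. It fell by 1.82 ± 0.17 (SE) on the log2 scale from day 4 to day 14 in WT (edgeR's quasi-likelihood test, Benjamini-Hochberg adjusted p = 3.87e-08) and rose by 0.50 ± 0.11 in KO (adjusted p = 0.000698). With a correction for exon length and GC content the rise in KO was 0.33 (adjusted p = 0.0075). The excess of KO over WT was 1.78 ± 0.11 at day 4 (adjusted p = 1.09e-09) and 4.10 ± 0.16, or 17.2-fold, at day 14 (adjusted p = 2.22e-12). The difference between these, the interaction of genotype and day, was 2.32 ± 0.20 (adjusted p = 3.26e-08). HET, with 1 copy of Actb, was 11.3-fold above WT at day 14 (adjusted p = 2.32e-11) and below KO, which was higher by 0.60 ± 0.11 on the log2 scale (adjusted p = 0.000189). On that scale the HET level lay much nearer to KO than to WT. These are bulk samples, so more cells with the RNA and more RNA per cell cannot be told apart.

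**Figure D1:**
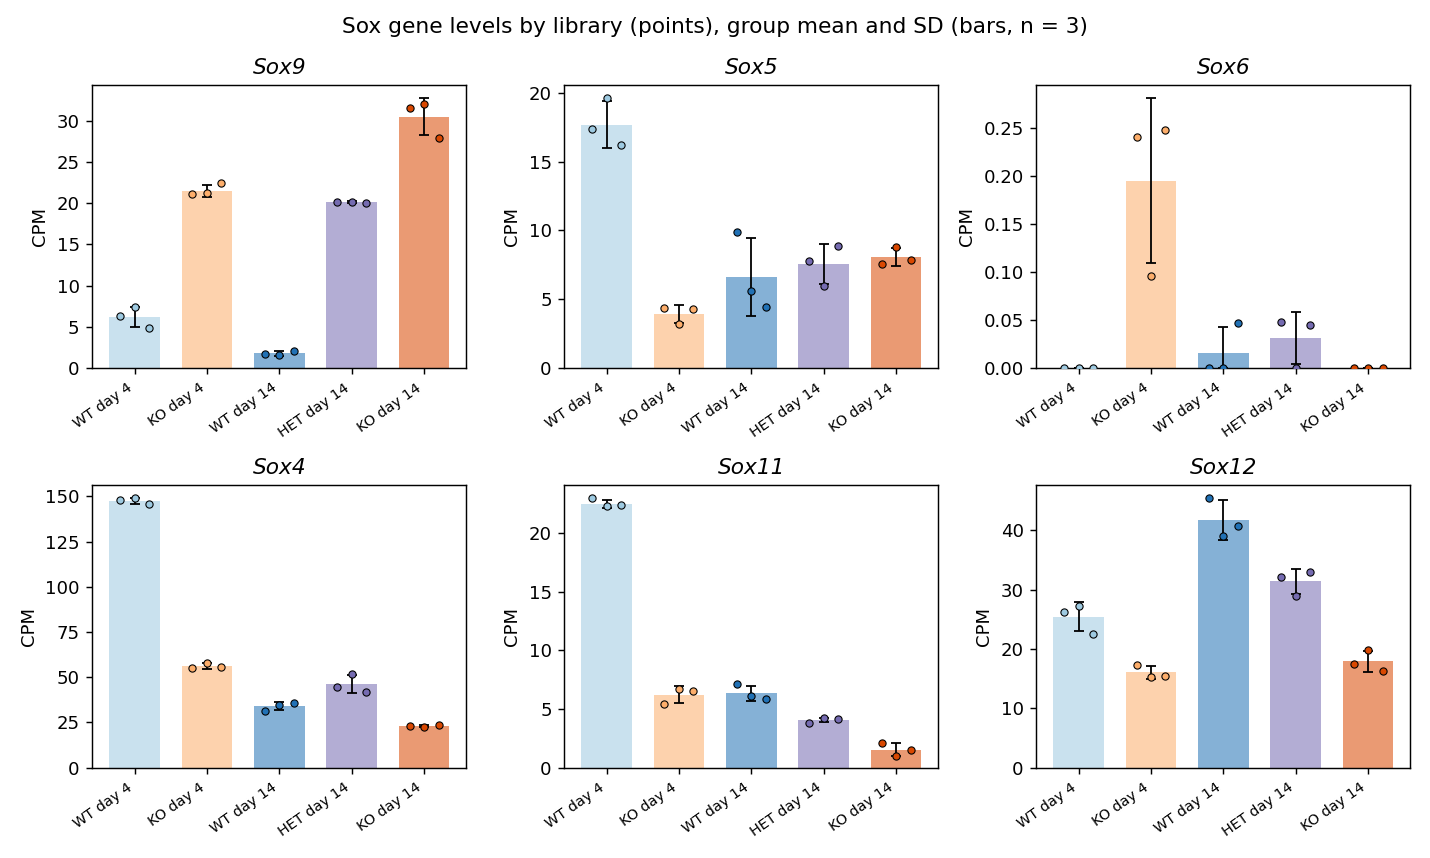
Levels of the 6 Sox genes in CPM, with 1 panel per gene and the 5 groups along the x axis; points are libraries, bars the mean and whiskers the SD of 3 libraries, and y axes differ between panels. Sox9 is the only one of the 6 with every KO and HET library above every WT library, while Sox4, Sox5 and Sox11 are highest in WT at day 4. The share of all tested genes separated like Sox9 is not given here.

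Sox5, a partner of Sox9 in cartilage, followed another course (ENSMUSG00000041540, chromosome 6, 143828425 to 144781977, minus strand). At day 4 it stood at 17.4, 19.6 and 16.2 CPM in WT and at 4.35, 3.2 and 4.32 in KO. At day 14 it stood at 9.85, 5.61 and 4.44 CPM in WT, 7.76, 5.99 and 8.88 in HET, and 7.53, 8.78 and 7.87 in KO. The genotypes were thus apart at day 4, with KO low, and overlapped at day 14. KO was below WT at day 4 (log2 change -2.16 ± 0.22, adjusted p = 2.22e-07). Sox5 then fell in WT by 1.42 ± 0.21 (adjusted p = 1.87e-05; by 0.94 with the length and GC correction) and rose in KO by 1.02 ± 0.23 (adjusted p = 0.00113). The interaction was 2.44 ± 0.31 (adjusted p = 4.7e-06), within the SE of that of Sox9. None of the 3 differences at day 14 passed the threshold: KO against WT was 0.28 ± 0.23 (adjusted p = 0.3), HET against WT 0.19 ± 0.23 (adjusted p = 0.501) and KO against HET 0.09 ± 0.23 (adjusted p = 0.758). The first 2 rested on WT replicate 1, the highest of that group, and passed without it, at 0.68 (adjusted p = 0.00527) and 0.59 (adjusted p = 0.0147).

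Sox6, the other SoxD member of the set, was at or near the counting limit (ENSMUSG00000051910, chromosome 7, 115470872 to 116038796, minus strand). Its counts were 8, 3 and 9 in the KO libraries of day 4, and 0 or 1 in each of the other 12 libraries. It did not pass the filter on low counts and was not tested with the others. Against a floor of 3 counts over the group, the KO level at day 4 was at least 7.01-fold higher than in WT and at least 4.68-fold higher than in KO at day 14. Without a filter beyond 1 count it passed the test in both of these comparisons and in the interaction of genotype and day. A count of 0 allows up to 0.126 CPM in the shallowest WT library of day 4, so low levels of Sox6 in WT were not detectable at this depth. The floor covers counting error only.

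Sox4, the SoxC gene made in mesenchymal and osteoblast precursors, was below WT in KO at both days and fell with time in both genotypes (ENSMUSG00000076431, chromosome 13, 28948919 to 28953713, minus strand). At day 4 it stood at 147.7, 148.9 and 145.8 CPM in WT and at 55.1, 57.9 and 55.4 in KO. At day 14 it stood at 31.4, 34.6 and 35.8 CPM in WT, 44.6, 51.9 and 42 in HET, and 22.9, 22.7 and 23.7 in KO. No groups overlapped, and the order at day 14 was HET above WT above KO, so that HET did not lie between the other genotypes. HET was higher than WT by 0.44 ± 0.07 (adjusted p = 8.01e-05), and by 0.35 without HET replicate 2, the highest HET library. KO was below WT at day 14 (log2 change -0.56 ± 0.07, adjusted p = 9.94e-06) and at day 4 (-1.39 ± 0.07, adjusted p = 4.47e-11). The fall over time was 2.12 ± 0.07 on the log2 scale in WT (adjusted p = 5.99e-13) and smaller in KO, where it fell by 1.28 ± 0.07 (adjusted p = 4.52e-10), with an interaction of 0.84 ± 0.10 (adjusted p = 2.47e-06).

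Sox11, the SoxC gene best known from neural and mesenchymal progenitors, fell in both genotypes to its lowest level in KO at day 14 (ENSMUSG00000063632, chromosome 12, 27334264 to 27342574, minus strand). At day 4 it stood at 23, 22.3 and 22.4 CPM in WT and at 5.4, 6.68 and 6.57 in KO. At day 14 it stood at 7.1, 6.12 and 5.84 CPM in WT, 3.83, 4.21 and 4.15 in HET, and 2.07, 0.96 and 1.54 in KO. KO at day 4 and WT at day 14 held about the same level, and within day 14 the genotypes were ordered WT above HET above KO with no overlap. KO was below WT at day 4 (log2 change -1.86 ± 0.13, adjusted p = 4.67e-09) and at day 14 (-2.05 ± 0.19, adjusted p = 1.2e-07). HET was below WT (log2 change -0.65 ± 0.16, adjusted p = 0.00298). The log2 change from day 4 to day 14 was -1.83 ± 0.14 in WT (adjusted p = 7.81e-09) and -2.01 ± 0.19 in KO (adjusted p = 8.95e-08). The difference between these, -0.19 ± 0.24, did not pass the threshold (adjusted p = 0.494).

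Sox12, the third SoxC gene, was the member with the narrowest range, 2.6-fold between its highest and lowest group (ENSMUSG00000051817, chromosome 2, 152393611 to 152398063, minus strand). At day 4 it stood at 26.3, 27.2 and 22.6 CPM in WT and at 17.3, 15.3 and 15.5 in KO. At day 14 it stood at 45.4, 39 and 40.7 CPM in WT, 32.2, 29 and 33 in HET, and 17.5, 19.8 and 16.3 in KO. Every WT library was above every KO library of the same day, HET lay between them, and the KO groups of the 2 days overlapped. KO was below WT at day 4 (log2 change -0.67 ± 0.09, adjusted p = 1.14e-05) and at day 14 (-1.22 ± 0.10, adjusted p = 2.54e-08), HET was below WT (log2 change -0.41 ± 0.09, adjusted p = 0.0015), and WT was higher at day 14 than at day 4 by 0.71 ± 0.09 (adjusted p = 3.82e-06). In KO the change with time was 0.16 ± 0.10 (adjusted p = 0.183), and the interaction was -0.55 ± 0.13 (adjusted p = 0.0019). Several of these values depended on the correction for exon length and GC content, and Sox12 has the highest GC content of the 6 transcripts (59.9%). With it, KO against WT at day 14 was -0.57 (adjusted p = 1.26e-05), and HET against WT (0.16, adjusted p = 0.0963), the change with time in WT (-0.0058, adjusted p = 0.952) and the interaction (0.17, adjusted p = 0.238) lost their calls and turned their sign.

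**Figure D2:**
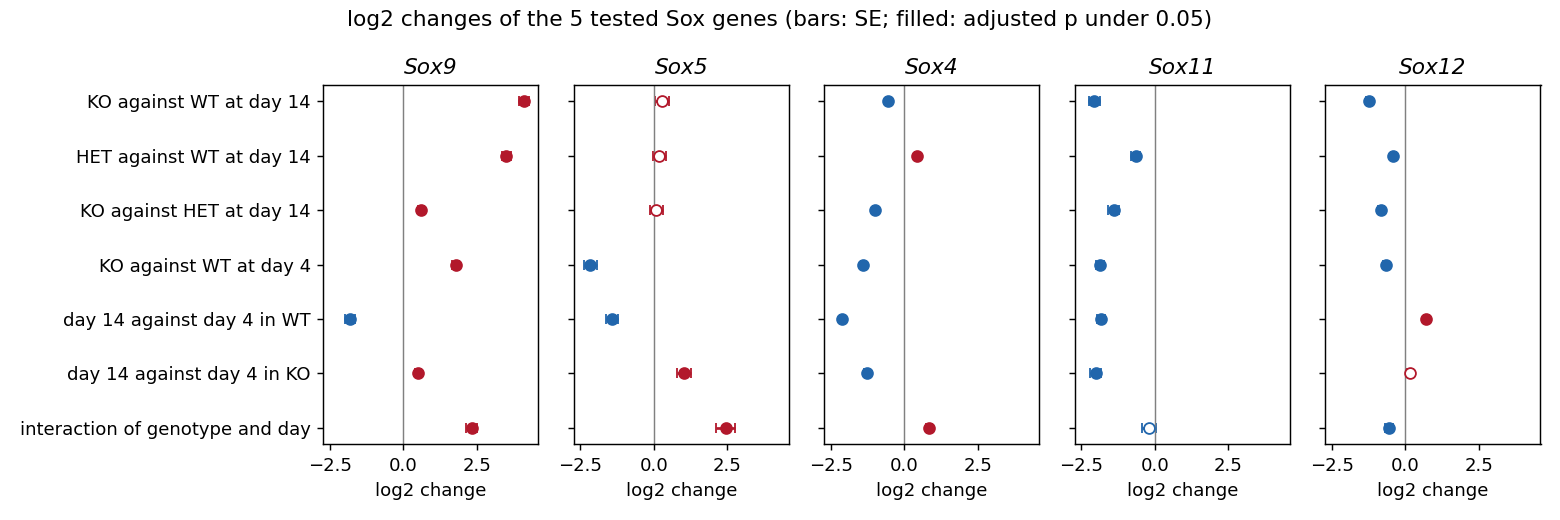
Log2 changes of the 5 tested Sox genes in the 7 comparisons, with 1 panel per gene; points are fitted values, whiskers the SE, red marks an increase and blue a decrease, and filled points passed an adjusted p of 0.05. Sox9 is to the right of 0 in every genotype comparison, reaching 4.10 for KO against WT at day 14, and Sox11 and Sox12 are to the left in all of them.

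Set against all 15296 genes tested, the number of calls among the members was not unusual, because most genes differed between these groups. At day 14, 4 of the 5 tested members passed in KO against WT, 1 higher (Sox9) and 3 lower (Sox4, Sox11 and Sox12), where 63.1% of all tested genes passed, 30.9% higher and 32.2% lower. In HET against WT, 2 were higher (Sox9 and Sox4) and 2 lower (Sox11 and Sox12), against 58.3% of all tested genes, 28.3% higher and 29.9% lower. In KO against HET, 1 was higher (Sox9) and 3 lower (the SoxC genes), against 59.5%, 29.4% higher and 30.1% lower. These 3 comparisons share their libraries and are not independent of each other. At day 4 all 5 passed in KO against WT, 1 higher (Sox9) and 4 lower, against 69.5% of tested genes, 35.7% higher and 33.8% lower. With time, 1 rose (Sox12) and 4 fell in WT, against 74.6%, 39.7% higher and 34.9% lower, and 2 rose (Sox5 and Sox9) and 2 fell (Sox4 and Sox11) in KO, against 60.9%, 30.8% higher and 30.1% lower. The interaction passed for 4, of which 3 were higher (Sox4, Sox5 and Sox9) and 1 lower (Sox12), against 64.7%, 30.7% higher and 34.0% lower. The shares of members called were near these backgrounds, so the sizes and directions given above, rather than the counts, describe the 6 genes.

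Levels of different genes can be set side by side only per length, here as CPM per kb of exon sequence. At day 4 the 6 genes summed to 41.9 ± 1.29 CPM per kb in WT and 21.6 ± 0.109 in KO, and to 17 ± 0.797 in KO, 22.6 ± 0.506 in HET and 18.1 ± 0.622 in WT at day 14. In WT, the SoxC genes held 93.5% ± 0.812 of the sum at day 4 and 95.1% ± 0.81 at day 14. They held 74.5% ± 0.971 in KO at day 4, 76.1% ± 0.949 in HET and 53.2% ± 1.19 in KO at day 14. The Sox9 share was 3.55% ± 0.623 and 2.37% ± 0.381 in WT at days 4 and 14, 24.2% ± 0.814 in KO at day 4, 21.5% ± 0.459 in HET and 43.5% ± 1.3 in KO at day 14. The pool thus held little Sox9 in WT at either day and much more in KO and HET, on this scale and with totals at day 14 that differed far less than the shares.

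The order of the members per kb was Sox4, Sox12, Sox11 and then Sox9 and Sox5, which overlapped, in WT at day 4. In KO at day 4 Sox9 came next after Sox4. At day 14 it was Sox12, Sox4 and Sox11 in WT, Sox4, Sox12 and Sox9 in HET, and Sox9, Sox4 and Sox12 in KO, where Sox9 reached 7.37 ± 0.538 and Sox4 4.82 ± 0.108 CPM per kb. That last order depended on the length given to Sox4. With the exon bases shared with Gm26735 left out, an alternative chosen after seeing the data, Sox4 had 10.6 ± 0.238 CPM per kb in KO at day 14 and led in all 5 groups, and the Sox9 share there was 32.3% ± 1.48, against 14.2% ± 0.707 in HET and 1.61% ± 0.239 in WT. At day 4 the sums were then 78.9 ± 1.69 CPM per kb in WT and 35.6 ± 0.483 in KO, and the Sox9 shares 1.89% ± 0.347 and 14.6% ± 0.575. At day 14 the sums were 26.6 ± 0.495 in WT, 34.2 ± 1.78 in HET and 22.8 ± 0.671 in KO. The Sox9 share in KO and HET stayed above that in WT of the same day with this length too. Sox6 was the lowest member per kb in each group under every length used.

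**Figure D3:**
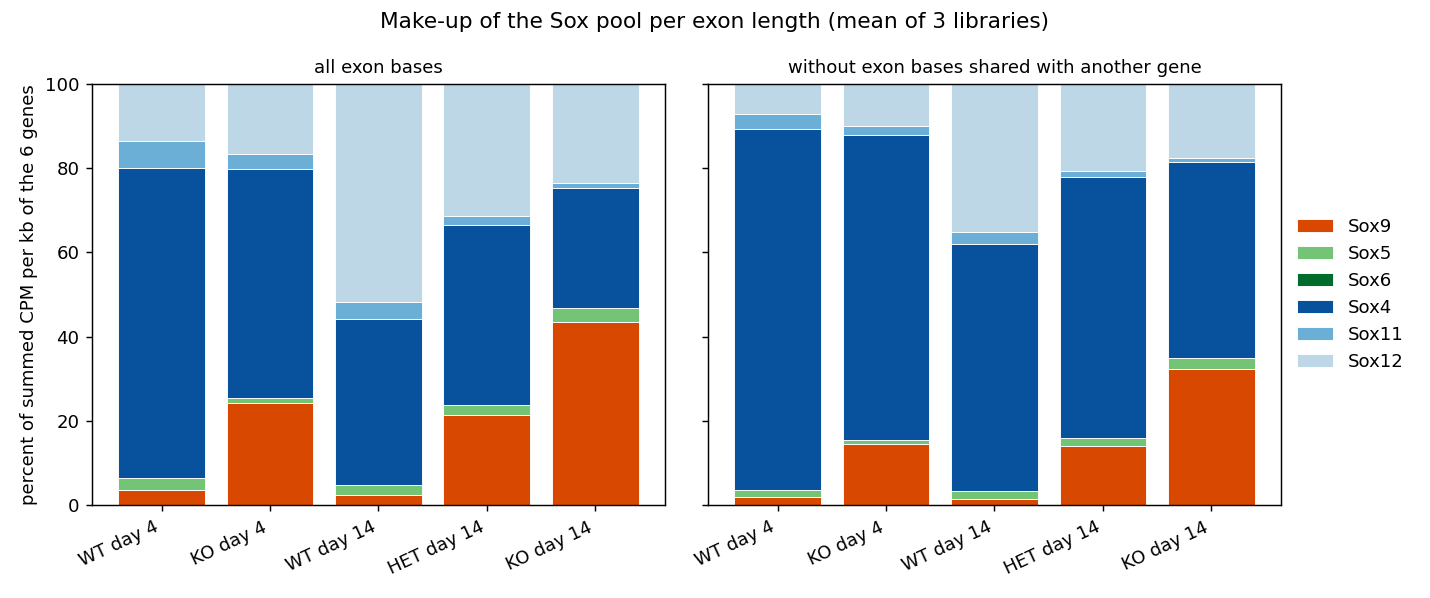
Share of each Sox gene in the summed CPM per kb of the 6 genes, as the mean of 3 libraries for each of the 5 groups, with all exon bases on the left and without exon bases shared with another gene on the right. The Sox9 part is largest in KO at day 14 in both panels (43.5% and 32.3%) and smallest in WT at day 14 (2.37% and 1.61%).

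Of the other 14 Sox family genes, 4 passed the filter on low counts: Sox7, Sox8, Sox13 and Sox30. Sox13, the third SoxD gene, was well above the counting limit in WT and at or near it in KO and HET. Sox13 counts at day 4 were 354, 352 and 196 in WT and 0 in each KO library, at least 286-fold higher in WT. At day 14 they were 41, 45 and 46 in WT, 1 in all of KO, a ratio of 145 (95% counting interval 25.6 to 5780), and 3 in all of HET, a ratio of 42.4 (14.2 to 208). Sox8, a SoxE gene like Sox9 that is known for overlapping roles with it, was below WT in KO at day 14 (log2 change -4.91 ± 0.76, adjusted p = 8.73e-07), the opposite direction to Sox9. Its counts were 36, 42 and 40 in WT, 4, 2 and 1 in HET and 0, 3 and 1 in KO. Sox7, of the SoxF subgroup found in endothelial and blood precursors, was lower (log2 change -2.79 ± 0.49, adjusted p = 6.1e-05), at 1.6 ± 0.715 CPM in WT, 0.191 ± 0.0695 in HET and 0.231 ± 0.117 in KO. Sox7, Sox8 and Sox13 passed the filter through WT libraries alone and so had to be lower in KO and HET. Their lower levels there are a description. Sox30 had no call in KO against WT at day 14 (log2 change -0.41 ± 0.56, adjusted p = 0.539). It was lower in HET than in WT (log2 change -2.84 ± 0.92, adjusted p = 0.00503), at 17 counts or fewer in any library. Sox30 owed its pass of the filter mainly to the WT libraries of day 14, at 17, 12 and 10 counts, against 4, 1 and 0 in HET. Its lower level in HET is thus a description too. Sox10, the third SoxE gene and a marker of neural crest and glia, had at most 1 count in any library.

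The cartilage genes, among them the targets through which SOX9 acts in chondrocytes, had more members lower than higher in KO at day 14 and more higher than lower at day 4, while Sox9 was higher in KO on each day. Of 30 genes, 18 were tested, and at day 14 in KO against WT 3 were higher and 12 lower. Over all tested genes 30.9% were higher and 32.2% lower. The median log2 change was -1.70 against -0.02 over all tested genes. At day 4, 9 of the 18 were higher and 6 lower, against 35.7% higher and 33.8% lower over all tested genes. The median was then 0.46 against 0.03. A gene that passed the filter through WT alone had to be lower in KO, so these counts are a description. Col2a1, the collagen II gene and a classical SOX9 target, had counts of 2, 3 and 0 in WT and 10, 14 and 11 in KO at day 4. At day 14 it had 37, 33 and 31 in WT, 7, 5 and 5 in HET, and 10, 3 and 2 in KO. It was thus lowest in WT at day 4 and highest in WT at day 14, with every other group between. KO against WT was 2.78 ± 0.76 at day 4 (adjusted p = 0.000951) and -2.86 ± 0.50 at day 14 (adjusted p = 5.89e-05), and HET against WT at day 14 was -2.50 ± 0.48 (adjusted p = 0.000197). Acan, the aggrecan gene, reached no more than 19 counts in a group and was not tested.

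Among the cartilage genes lower in KO at day 14, Fgfr3, a receptor that restrains chondrocyte division, stood at 3.4 ± 0.394 CPM in KO against 12.8 ± 0.7 in WT (log2 change -1.91 ± 0.14, adjusted p = 1.22e-08). Col11a1, a chain of collagen XI, had 119 counts in the WT libraries against 2 in KO, a ratio of 65.4 (95% counting interval 17.7 to 547), and 1131 against 2 at day 4. Runx3, a factor of chondrocyte maturation, was lower (log2 change -0.75 ± 0.08, adjusted p = 1.56e-06; -0.40 with the length and GC correction). Of the 3 that were higher, Prg4, which encodes the joint lubricant lubricin, stood at 17.4 ± 1.39 CPM in KO against 5.37 ± 0.137 in WT, higher by 1.69 ± 0.16 (adjusted p = 1.38e-07). Chst11, a chondroitin sulfotransferase, was higher by 1.39 ± 0.16 (adjusted p = 2.62e-06), and Trps1, a zinc finger factor of growth plate cartilage, by 0.83 ± 0.16 (adjusted p = 0.000394). In HET against WT 7 of the 18 were higher and 10 lower, with a median of -0.72. Over all tested genes 28.3% were higher and 29.9% lower. Col9a3, a chain of collagen IX named after its values were seen, was at 7.29 ± 0.596 CPM in HET, 2.16 ± 0.258 in WT and 0.498 ± 0.337 in KO. HET and KO thus lay on opposite sides of WT. A link of Col9a3 to Sox9 was not tested.

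**Figure D4:**
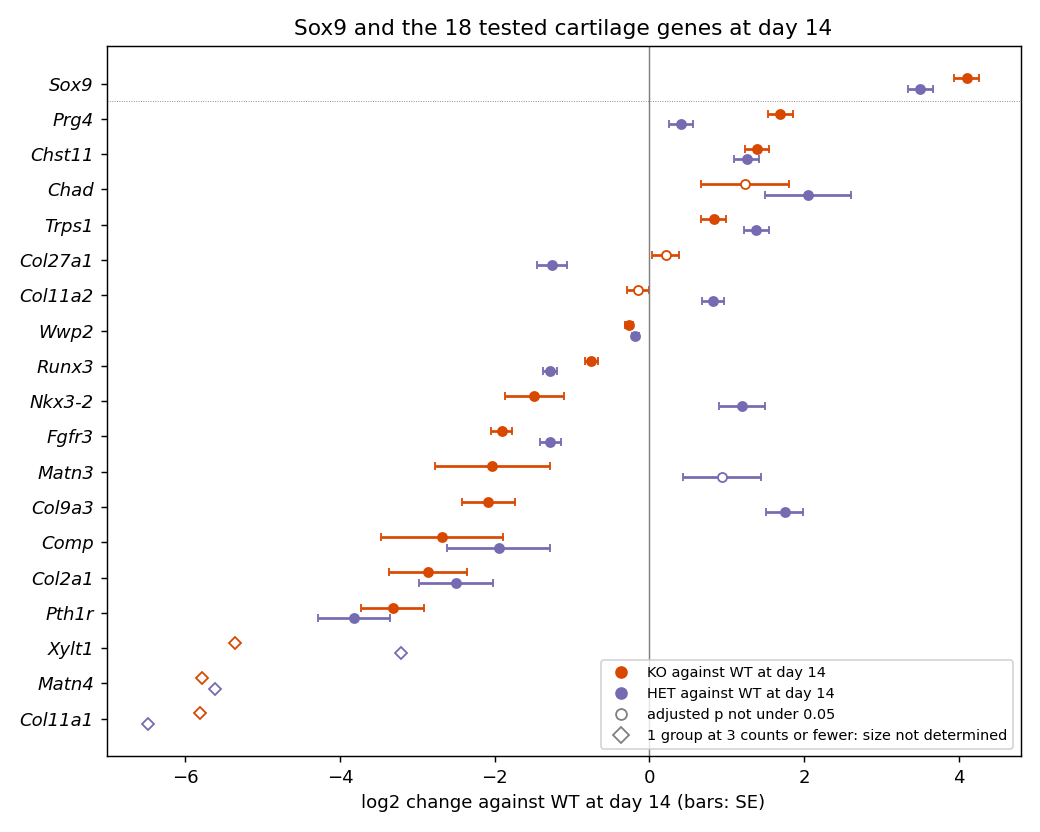
Log2 change against WT at day 14 of Sox9 (top) and the 18 tested cartilage genes, in KO (orange) and HET (purple); whiskers are the SE, open circles did not pass an adjusted p of 0.05, and open diamonds mark genes with 3 counts or fewer in 1 group, whose size of change is not determined. Sox9 lies at 4.10 and 3.50, and 12 of the 18 genes were called lower in KO, against 32.2% of all tested genes. Genes that passed the filter through WT alone had to be lower, so this count is a description.

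Sums of markers of other cell types also differed between the groups in which Sox9 differed. At day 14 the summed level of 6 adipocyte genes was 27.8 to 32.6 CPM in WT, 250.8 to 381.9 in HET and 480.6 to 499.3 in KO, in HET and KO nearly all from Fabp4 and Lpl, while group totals of the defining genes Adipoq and Plin1 never passed 1 and 4 counts. The sum of 6 macrophage genes was 8.27 to 8.82 in WT, 7.38 to 7.75 in HET and 38.3 to 41.2 in KO, where it came nearly all from Cd68, a lysosomal gene. Of the 3 macrophage genes tested, Cd68 was higher in KO than in WT (log2 change 2.59, adjusted p = 3.73e-12), Csf1r, the receptor gene that defines the lineage, was lower (-3.28, adjusted p = 0.000334), and Lyz2 had no call (0.76, adjusted p = 0.106). Csf1r, Ptprc, Adgre1 and Tyrobp each had a total of at most 4 counts in KO. The sum of 8 neural crest and glia genes, cells that also make Sox9, was lower in KO (4.03 to 5.03) and HET (4.94 to 6.81) than in WT (8.95 to 11.1), with 3 of the 8 at 0 counts in KO and in HET. The 6 neuron genes summed to 11.3 to 12.1 in KO, 1.63 to 4.15 in HET and 6.21 to 7.15 in WT, and the 2 that were tested went opposite ways in KO against WT: Map2 was higher (log2 change 4.61, adjusted p = 2.82e-10) and Tubb3 lower (-2.68, adjusted p = 6.23e-07). Stmn2 and Elavl4 had 0 counts in KO.

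At day 4 the marker sums differed between KO and WT as well. The neuron sum was 49 to 53.9 CPM in KO, mostly from Map2, against 2.31 to 3.37 in WT, and the adipocyte sum 110.4 to 113.7 against 26.5 to 27.9. The 7 endothelial genes summed to 0.664 to 0.831 in KO against 11.3 to 14.4 in WT, mostly from Kdr. The 5 epithelial genes summed to 9.33 to 9.66 in KO against 0.16 to 0.39 in WT, nearly all from Krt19 and Krt18, while Epcam, which defines epithelia, had 0 counts in KO. Macrophage genes summed to 5.7 to 6.68 in KO against 3.2 to 3.95 in WT, neural crest and glia genes to 5.66 to 6.66 against 1.05 to 2.36, and 6 skeletal muscle genes to 4.83 to 6.02 against 1.05 to 1.61. The part of these cell types in the Sox gene differences of either day was not tested.

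Runx2, made together with Sox9 in skeletal precursors, differed between KO and WT in the same direction as Sox9 at day 14 and in the other direction at day 4. At day 4 it stood at 47.6 to 53.1 CPM in KO and 70.1 to 73 in WT, and later at 18.9 to 21.8 in WT, 27 to 33.1 in HET and 31 to 33 in KO at day 14. KO was below WT at day 4 (log2 change -0.49 ± 0.07, adjusted p = 2.34e-05) and higher by 0.63 ± 0.08 at day 14 (adjusted p = 6e-06), with an interaction of 1.11 ± 0.11 (adjusted p = 2.37e-07). KO and HET overlapped at day 14, with a difference of 0.05 (adjusted p = 0.574).

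Genes of the BMP pathway, which can raise Sox9 in skeletal precursors, went both ways. Of 20 genes, 15 were tested, and 4 were higher and 5 lower in KO against WT at day 14. These counts were near the shares over all tested genes, 30.9% higher and 32.2% lower. The median was -0.06 against -0.02. The ligand gene Bmp4 stood at 4.13 ± 0.353 CPM in KO, 10.6 ± 1.13 in HET and 40.3 ± 3.5 in WT, lower in KO (log2 change -3.28 ± 0.13, adjusted p = 8e-12). The receptor gene Bmpr1b was lower (log2 change -5.28 ± 0.74, adjusted p = 1.42e-07), with 153 counts in WT, 4 in KO and 0 in HET. Bmpr1b passed the filter through WT libraries alone and so had to be lower in KO and HET. Its lower level there is a description. Id2, an inhibitor of bHLH factors that BMP signals induce, was lower (log2 change -2.05 ± 0.25, adjusted p = 2.31e-06). The receptor gene Acvr1 was higher by 0.73 ± 0.08 (adjusted p = 5.3e-07), and so were the SMAD genes Smad9, by 1.49 ± 0.16 (adjusted p = 5.82e-07), and Smad4, by 0.43 ± 0.06 (adjusted p = 1.22e-05). Id1 and Id3, also in the list, had no call at day 14 (log2 change -0.21, adjusted p = 0.175, and 0.17, adjusted p = 0.172). At day 4, 4 of the 15 were higher and 9 lower in KO against WT, against 35.7% higher and 33.8% lower over all tested genes. A gene that passed the filter through WT alone had to be lower in KO, so these counts are a description. Bmp4 had no call at day 4 (log2 change -0.13, adjusted p = 0.44). Acvr1 (-0.39, adjusted p = 0.00012) and Smad4 (-1.15, adjusted p = 5.8e-11) were lower in KO at day 4, and Smad9 was higher (4.68, adjusted p = 4.5e-11). Id2 was then at 8.79 ± 0.759 CPM in KO and 1.6 ± 0.301 in WT, and Id1 and Id3 were higher in KO too. A part of these genes in the Sox9 differences was not tested.

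The machinery of cAMP and protein kinase A, which forskolin engages and which can act on the SOX9 protein, also went both ways. All 19 genes were tested, and 7 were higher and 8 lower in KO against WT at day 14. Over all tested genes 30.9% were higher and 32.2% lower. The median was 0.18 against -0.02. Among regulatory subunits of the kinase, Prkar1a was higher by 0.69 ± 0.06 (adjusted p = 4.9e-08) and Prkar1b lower (log2 change -2.20 ± 0.08, adjusted p = 1.96e-12). The catalytic subunit gene Prkacb was higher by 0.43 ± 0.07 (adjusted p = 3.27e-05), or 0.27 with the length and GC correction. The other catalytic subunit gene in the list, Prkaca, was lower (log2 change -0.25 ± 0.06, adjusted p = 0.0013). Pde4b, which encodes an enzyme that breaks down cAMP, was higher by 0.52 ± 0.07 (adjusted p = 9.37e-06), and Adcy3, an adenylyl cyclase gene, was lower (log2 change -2.50 ± 0.17, adjusted p = 4.38e-09). Nr4a1, an immediate early gene that cAMP induces, was lower (log2 change -1.15 ± 0.07, adjusted p = 2.31e-09), or -0.67 with the correction. In WT it went from 246.8 ± 17 CPM at day 4 to 29.7 ± 0.921 at day 14, and in KO it stood at 13.4 ± 0.636 and 13.4 ± 1.18. Of the other Nr4a genes in the list, Nr4a3 was lower in KO at day 14 (log2 change -1.25, adjusted p = 0.0079). Nr4a2 had no call (0.27, adjusted p = 0.0917).

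The genes whose level was most like that of a member were ranked by Pearson's r of log2 CPM over the 15 libraries, among 11781 genes. The libraries fall into 5 groups, so each r reflects mostly the group means and is a description. For Sox9 these were Mfsd1 (0.986), Ctnna1 (0.977), Zhx2 (0.973), Vopp1 (0.972) and Parm1 (0.972). At day 14 Zhx2 was at 2.02 ± 0.472 CPM in WT, 28.8 ± 2.1 in HET and 38.7 ± 1.09 in KO, and Mfsd1 at 279.8 ± 9.3, 484.2 ± 12.2 and 562.3 ± 17.3, a narrower range in fold than that of Sox9. For Sox4 they were Rae1 and M6pr (both 0.990), for Sox5 Rpusd2 (0.953) and Caprin1 (0.949), for Sox11 Pde10a (0.989) and N4bp2l2 (0.985), and for Sox12 Epas1 (0.976) and Prrg3 (0.973). Epas1, a factor of the oxygen response, was at 262.5 ± 36 CPM in WT, 51 ± 12.3 in HET and 3.89 ± 0.468 in KO at day 14, a much wider range than that of Sox12. With Spearman's rho only Parm1 stayed among the 5 nearest to Sox9 and only Pde10a among the 2 nearest to Sox11, and none of the 2 named for Sox4, Sox5 and Sox12 did.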

How the data were processed

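RNA was measured by sequencing in 15 libraries of reprogrammed mouse fibroblasts. Each library has a deposited table of raw counts by Ensembl gene ID. Per the submitters' processing notes, the authors used TopHat2 2.1.0, HTSeq, DESeq2 and the build GRCm38.p4; other versions, the annotation and how strand was handled were not given in the sources used here. Per the labels' protocols, libraries were made with the TruSeq RNA v2 kit, which does not mark strand. GENCODE M21 (GRCm38) gave symbols to 46091 of 46603 IDs and exon lengths. Groups come from the sample titles.

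Counts were tested with edgeR 4.0.16 (R 4.3.3): filterByExpr, TMM scaling, 1 model over all 15 libraries with the 5 groups, and robust quasi-likelihood F tests of 7 comparisons. It took in 15296 genes, at a common biological coefficient of variation (edgeR's measure of spread between libraries) of 8.33%. P-values were adjusted by Benjamini-Hochberg over all tested genes of a comparison, with a threshold of 0.05; the SE is the Wald SE. The scripts were tested on simulated data. A group at 0 counts was set at 3 counts, and ratios with 1 to 3 counts carry a 95% exact counting interval; both cover counting error only. Level per length used the union of exons, with the longest transcript and the exons without shared bases as alternatives.

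The members and the gene lists were chosen with earlier results of these data known. Named list genes are, per list, up to 3 higher and 3 lower with the smallest adjusted p in KO against WT at day 14; likeness used genes with a symbol and a mean of at least 1 CPM. Alternatives were RLE scaling, DESeq2 1.42.0, a filter of 1 CPM in 3 libraries or none beyond 1 count, a block for the replicate number, a fit to only the groups compared, a spline correction (5 degrees of freedom) for exon length and GC content, and each library left out in turn.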

Additional observations from a re-analysis of the deposited data

Results flagged for a closer look

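For 4 Sox genes the difference between KO and WT was not the same at the 2 days, by the test of the interaction of genotype and day in edgeR. For Sox9 the KO excess was larger at day 14 than at day 4 by 2.32 on the log2 scale. For Sox5 the difference moved upward by 2.44, from a deficit in KO at day 4 to overlapping groups at day 14. For Sox4 it moved upward by 0.84, from a larger deficit in KO to a smaller one. For Sox12 it moved by -0.55, from a smaller deficit in KO to a larger one, and this value alone of the 4 lost its call and its sign with the length and GC correction. The same test passed for 64.7% of all genes tested.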

How the results depend on the processing

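Over 22 alternatives, 761 of 770 values of the 5 tested Sox genes kept their direction and their side of the threshold, and 28 of 35 results did so under every alternative. The count of Sox genes called stayed within 1.5 times its first value in all comparisons, as did the count over all genes. With the length and GC content correction, 4 Sox values changed direction: Sox12 in HET against WT (0.16), Sox12 with time in WT (-0.0058), the Sox12 interaction (0.17) and Sox5 in KO against HET (-0.11), as did Runx2 in KO against HET (-0.089). The cause was not tested. With 1 library left out, Sox5 in HET against WT ran from -0.024 to 0.59 (lowest without WT replicate 3 of day 14), Sox5 in KO against HET from -0.052 to 0.22 (negative without HET replicate 2), Runx2 in KO against HET from -0.029 to 0.12 (negative without HET replicate 2), and the Sox11 interaction from -0.46 to 0.048 (positive without KO replicate 2 of day 14).

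The replicate numbers did not pair libraries: residuals of same-numbered libraries correlated by -0.15 to 0.179 in 30 pairs, of which 1 exceeded 0.1 (median -0.00505). With the replicate number as a replicate block, 4 Sox genes were called in each comparison of genotypes at day 14 and 5 at day 4, and 5, 4 and 4 with time in WT, with time in KO and in the interaction, the same counts as without it. All 594 values tried for the 23 named list genes kept their call and direction. Depth limits Sox6, at 9 counts or fewer in any library, and Sox7, Sox8, Col2a1 and Acan, at 52 or fewer. Counts were also low in the lowest groups of Sox9 (36, 33 and 45 in WT at day 14) and Sox11 (49, 21 and 39 in KO at day 14).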
